A study of Mus musculus with 4 samples.

Results

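Cadherins and protocadherins, calcium-dependent adhesion proteins of the cell surface, were measured by RNA-seq in neural stem cells sorted from adult mice, in 4 libraries. The members were all protein-coding genes of the mouse annotation named as a numbered cadherin (Cdh), a protocadherin (Pcdh), Celsr1 to Celsr3, Fat1 to Fat4, Dchs1 or Dchs2. They came to 101 genes with 311 transcripts, of 32564 genes in all. By name they fell into 5 type I and 13 type II classical cadherins, 5 other cadherins, 57 clustered protocadherins (14 alpha, 22 beta and 21 gamma), 9 delta protocadherins, 3 other protocadherins, 3 Celsr genes and 6 Fat or Dchs genes. The 4 libraries form 1 group: untreated cells sorted by flow cytometry as GFAP+, Prom1+ and EGFR+ from gfap:GFP transgenic mice of mixed CD1 and C57BL/6 background, 3 months old, labelled as activated. The transgene marks Gfap-promoter activity, which astrocytes share with stem cells. The design text of the series speaks instead of quiescent cells after aCSF or a miR204 antagomer. No label assigns either agent to a library, so no groups were compared, and if that text applied, the spread between libraries would also hold a treatment. Nothing says that the libraries come from separate animals, so SDs and p-values measure the spread between these samples, which may be technical.

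Classical cadherins bind their own kind on neighbouring cells and hold the actin cytoskeleton through catenins; type I and type II proteins differ in the pocket that swaps a strand between partners. In the ventricular wall, N-cadherin junctions tie stem cells to each other and to ependymal cells. Alpha and gamma protocadherins are each made from a choice of first exons, every one with its own promoter, spliced to exons shared by the whole cluster, and the beta genes have no shared exons. The chosen combination gives a cell a surface identity. Delta protocadherins are single genes, Celsr proteins carry planar polarity, and Fat and Dchs proteins are very large cadherins that bind each other across cells.

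Levels are given in TPM, a share of all transcripts that corrects for transcript length and library total, so that genes can be set side by side. A gene was called above or below 1 TPM where the mean of log2(TPM + 1) over the 4 libraries differed from its value at 1 TPM (limma, adjusted p under 0.05 over all 19914 genes with a count). The libraries held 16978938 to 23727664 estimated counts, and the sorting markers Gfap, Egfr and Prom1 were present at 149 ± 54.4, 89.7 ± 23.1 and 23.1 ± 7.01 TPM (SD, n = 4). Markers of other cells were present too. The summed level of the 8 oligodendrocyte genes ran from 742 to 2398 TPM, of the 8 microglia genes from 117 to 419 TPM, of the 8 ependymal genes from 601 to 1211 TPM and of the 8 mature neuron genes from 1066 to 1312 TPM; library 1 was the lowest for the first 3 lists and the highest for the neuron genes. The 5 erythroid genes summed to 59.9, 641, 449 and 2342 TPM in libraries 1 to 4, and the 5 oligodendrocyte precursor genes to 157 to 217 TPM. The part of those cells in the levels below was not tested, and more cells of a type cannot be told apart from more RNA per cell.

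Of the 101 members, 96 had a count in some library. Of these 45 were above 1 TPM, 20 below it and 31 passed in neither direction. That is 46.9% above, while 62.8% of all genes tested were above, and 20.8% below against 23.2% of all genes. The median member tested stood at 2.10 TPM and the median gene at 8.34 TPM. Summed TPM of all members was 818, 729, 850 and 855 in libraries 1 to 4. The gamma protocadherins held about as much as all other members together, between 47.4 and 53.2% of it in each library. Type I cadherins held 11.6 to 13.0%, delta protocadherins 14.4 to 18.5%, type II cadherins 6.51 to 7.97%, and alpha protocadherins 0.483 to 0.851%.

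**Figure D1:**
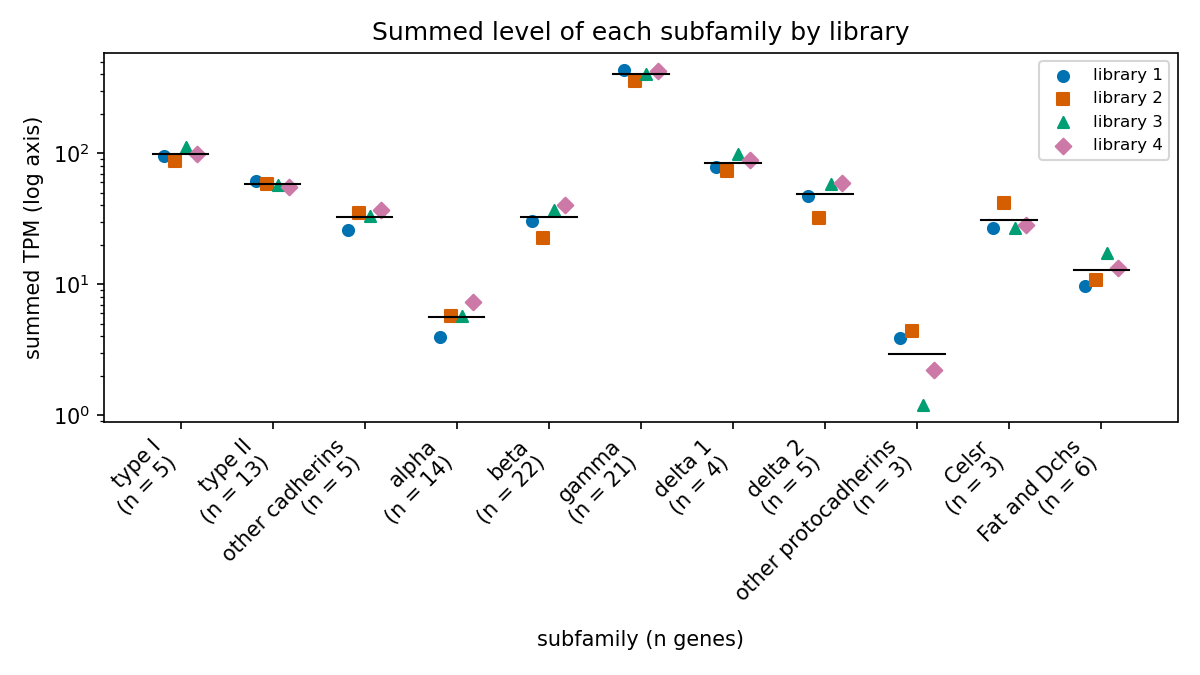
Summed TPM of each subfamily (log axis) in each of the 4 libraries, with the number of genes in brackets and a black line at the arithmetic mean. The gamma protocadherins sum to 358 to 435 TPM in every library and the alpha protocadherins to 3.95 to 7.28 TPM.

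The sequences just upstream of 3 members are shown because the members differ widely in level and their RefSeq start (GRCm38.p6) lies within 50 bases of the annotated gene start. Pcdh9 and Pcdh10 were the highest delta 1 and delta 2 genes, and Cdh23 had the lowest mean of the 15 members with such a start. Each line gives the 250 bases before the start, 5′ to 3′ on the strand of the gene, with CG dinucleotides in capitals; the windows are chr14:93890680-93890929 (minus strand), chr3:45378148-45378397 (plus strand) and chr10:60696491-60696740 (minus strand).
Pcdh9: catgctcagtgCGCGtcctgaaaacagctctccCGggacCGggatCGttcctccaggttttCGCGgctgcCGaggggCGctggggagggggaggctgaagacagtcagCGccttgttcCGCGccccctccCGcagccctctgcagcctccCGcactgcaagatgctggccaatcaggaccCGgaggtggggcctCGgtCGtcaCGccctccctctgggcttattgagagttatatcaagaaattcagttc
Pcdh10: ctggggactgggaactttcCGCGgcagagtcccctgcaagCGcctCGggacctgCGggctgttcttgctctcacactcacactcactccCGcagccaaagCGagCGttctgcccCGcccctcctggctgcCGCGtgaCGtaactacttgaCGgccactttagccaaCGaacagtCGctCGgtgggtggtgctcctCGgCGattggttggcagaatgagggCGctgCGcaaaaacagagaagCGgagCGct
Cdh23: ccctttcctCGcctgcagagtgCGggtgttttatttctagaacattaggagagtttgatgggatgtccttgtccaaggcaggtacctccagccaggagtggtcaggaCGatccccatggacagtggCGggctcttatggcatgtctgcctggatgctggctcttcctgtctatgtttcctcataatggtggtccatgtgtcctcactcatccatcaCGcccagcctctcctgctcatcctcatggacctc
The windows hold 18, 22 and 5 CG dinucleotides. Over all 32851 promoter windows of this length the median was 6, and 92.1% held at least 1. For the 29 members with a window, taking the richest of each, the median was 11. It was also 11 over all 32 member windows. By call it was 18 for the 13 members above 1 TPM, 14.5 for the 4 below and 8 for the 11 in neither. The 1 member without a count had 3. Only 15 of the 29 had a RefSeq start within 50 bases of the annotated gene start. The 4 below, Fat3 with 27, Dchs2 with 22, Cdh12 with 7 and Cdh9 with 6, all started farther off. Whether the count at annotated starts follows the level was therefore not tested.

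Among type I cadherins, Cdh2 (N-cadherin, chromosome 18, 16588877 to 16809246 in mm10) stood at 82.7, 72.6, 92.0 and 79.3 TPM in libraries 1 to 4. All 4 values lie far above every other classical cadherin. Cdh4 (R-cadherin), a close relative that can pair with N-cadherin, stood at 11.97, 15.04, 17.71 and 17.85 TPM. On the log2(TPM + 1) scale Cdh2 was higher than Cdh4 by 2.32 ± 0.26 (SD, n = 4), in 4 of 4 libraries, and it made up 83.0 ± 2.73% of the type I sum. Both were above 1 TPM (Cdh2 log2 difference 5.36 ± 0.08, SE; Cdh4 3.04 ± 0.15; limma, adjusted p = 1.85e-08 and 3.46e-06). The muscle cadherin Cdh15 passed in neither direction at 0.70, 0.29, 0.97 and 1.80 TPM. Cdh3 (P-cadherin, 0.0947 ± 0.0483 TPM) and Cdh1 (E-cadherin, 0.0123 ± 0.0163 TPM), which hold epithelia together, were below 1 TPM. Cdh1 had a mean of 0.783 estimated counts per library, less than the 3 counts taken as the limit of detection.

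The Cdh2 level came almost wholly from coding transcripts (99.2%), with a transcript of 3785 bases at 56.2 ± 6.68 TPM and one of 4843 bases at 24.7 ± 2.73 TPM. Cdh4 was less uniform. Its coding transcript of 6388 bases stood at 7.46 ± 1.08 TPM, a coding transcript of 1208 bases at 3.45 ± 0.78 TPM and a retained-intron transcript at 3.22 ± 1.07 TPM. A further Cdh4 transcript of 69 bases was listed at 4.29 TPM in library 4 and at 0 in the others.

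Type II cadherins were more numerous but lower in sum. Their sum of 58.2 ± 2.37 TPM was below that of type I (98.3 ± 9.51 TPM), with a log2 ratio of type I over type II of 0.64, 0.60, 0.94 and 0.83 in libraries 1 to 4. With only the most abundant transcript of each gene that ratio was 0.36 ± 0.23. Cdh2 alone held 83.0 ± 2.73% of the type I sum. By the median gene the order was reversed, with 2.93 TPM in type II and 0.942 TPM in type I. Of the 12 type II genes with a count, 6 were above 1 TPM, 2 below and 4 in neither. Over all genes tested, 62.8% were above and 23.2% below. Cdh11 (OB-cadherin), known from mesenchyme, was highest at 17.5, 14.6, 21.1 and 15.8 TPM. Cdh10 followed at 9.31, 8.90, 11.5 and 14.9 TPM. Cdh11 was above Cdh10 in 4 of 4 libraries, but in library 4 the log2 ratio was only 0.07, against 0.65 to 0.85 in the others. Cdh22 (8.98, 8.47, 3.73 and 8.55 TPM) was lower in library 3 than in the rest, and Cdh24 (6.81, 7.50, 6.10 and 3.41 TPM) was lowest in library 4; both were above 1 TPM, as were Cdh20 (4.40 ± 2.58 TPM) and Cdh19 (2.93 ± 1.02 TPM). The Cdh19 call was lost without library 3 (adjusted p = 0.052, limma; 0.000138 to 0.052 over its alternatives), with a log2 difference of 0.93 either way.

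The remaining type II genes were low or uneven. Cdh18 had 6.47, 2.61, 2.19 and 0.05 TPM, so that library 1 was high and library 4 nearly empty, and it passed in neither direction; library 1 also had the highest summed level of the 6 neuroblast genes (389 TPM, against 213 TPM in library 4), whose part in the result was not tested. Without library 4 Cdh18 was above 1 TPM (log2 difference 1.14, limma, adjusted p = 0.045; 0.029 to 0.712 over its alternatives). Cdh6 ran from 0.932 to 5.66 TPM and passed in neither direction, and was above 1 TPM with edgeR (log2 difference 1.69), with at least 5 mean counts, and after rescaling over nuclear protein-coding genes (1.17). Cdh7 (1.65 ± 0.82 TPM) and Cdh8 (1.30 ± 1.05 TPM, a gene named after its values were seen) were also in neither. Cdh12 (0.112 ± 0.160 TPM, likewise) and Cdh9 (0.0894 ± 0.112 TPM) were below 1 TPM, and the Cdh9 call was lost with edgeR (log2 difference -3.39). The Cdh5 gene (VE-cadherin), which defines endothelial junctions, had no count in any library, which at 3 counts allows up to 0.0731 TPM. Pcdh12, a protocadherin of endothelium, also had none (up to 0.0758 TPM). These limits cover counting error only.

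**Figure D2:**
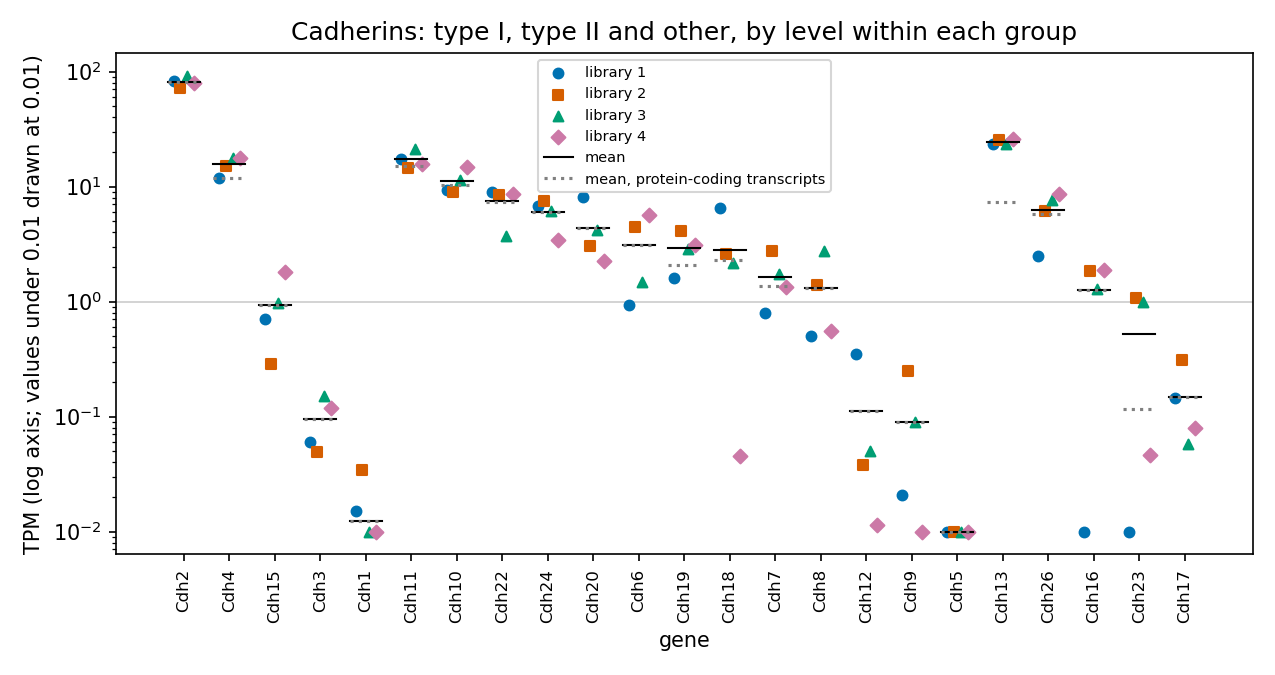
TPM of the 5 type I, 13 type II and 5 other cadherins (log axis; values under 0.01 drawn at 0.01), one marker per library, with a solid line at the arithmetic mean and a dotted line at the mean of protein-coding transcripts. Cdh2 lies between 72.6 and 92.0 TPM, above all others, and the dotted line of Cdh13 lies far under its solid line.

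Among the other cadherins, Cdh13 (T-cadherin), which is held to the membrane by a lipid anchor and lacks the catenin-binding tail, was the most even member of the group at 23.4, 25.6, 23.3 and 26.1 TPM. It was above 1 TPM (log2 difference 3.68 ± 0.09, SE; limma, adjusted p = 1.66e-07). Only 29.8% of that level came from coding transcripts: the coding transcript of 3785 bases stood at 7.33 ± 1.32 TPM, and non-coding transcripts of 620 and 580 bases at 9.38 ± 1.99 and 7.81 ± 0.73 TPM. Cdh26 was above 1 TPM at 2.51, 6.08, 7.67 and 8.57 TPM, with library 1 lowest. Cdh16, known from kidney, was listed at 0, 1.84, 1.29 and 1.87 TPM, all of it in 1 transcript of 586 bases with a mean of 7.61 estimated counts for the gene, and passed in neither direction. Cdh17, known from gut, was below 1 TPM at 0.148 ± 0.114 TPM. Cdh23 and Pcdh15, the pair that forms the tip links of hair cells, passed in neither direction at 0.527 ± 0.584 and 0.925 ± 0.710 TPM. Coding transcripts made up 22.1% of the Cdh23 level (0.117 TPM). The Cdh23 call changed with coding transcripts only and with its most abundant transcript only. That of Pcdh15 changed with its most abundant transcript only and without library 2.

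The gamma protocadherins were the highest and most fully detected of the clustered genes. All 21 had counts in all 4 libraries, 18 were above 1 TPM (62.8% of all genes tested) and 3 (Pcdhga3, Pcdhgb1 and Pcdhga1) were in neither. Their sum was 435, 358, 403 and 425 TPM, against 30.7, 22.5, 36.7 and 40.0 TPM for the 22 beta genes and 3.95, 5.69, 5.76 and 7.28 TPM for the 14 alpha genes. The order gamma, beta, alpha was the same in 4 of 4 libraries. The log2 ratio of gamma over beta was 3.67 ± 0.28 and that of gamma over alpha 6.19 ± 0.41 (SD, n = 4). Without length correction beta over alpha fell from 2.52 ± 0.41 to 2.08 ± 0.48.

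Within the gamma cluster the 3 C genes, which neurons are known to use without the choice made among the others, held 59.9 to 68.5% of the sum. Pcdhgc3 (chromosome 18, 37806364 to 37841873) was the highest of all members at 133, 120, 127 and 160 TPM (log2 difference 6.08 ± 0.09, SE; limma, adjusted p = 1.69e-08). Pcdhgc4, which neurons need for survival, was second by its mean at 122, 83.0, 87.5 and 106 TPM, though under Cdh2 in library 3, and Pcdhgc5 stood at 28.4, 29.2, 27.2 and 24.7 TPM. Pcdhgc3 exceeded Pcdhgc4 in 4 of 4 libraries, by a log2 ratio of 0.13 in library 1 and 0.52 to 0.59 in the others. In library 4 a Pcdhgc3 transcript marked for nonsense-mediated decay stood at 22.5 TPM, while it was between 0 and 0.35 TPM in the rest.

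How the reads of shared exons were divided bears on these levels. For each gene the 31-base words found in no other gene of the index were counted. They made up a median of 53.9% of the words of a gamma gene, 36.5% of an alpha gene and 88.2% of a beta gene, and at least 95.1% of every nonclustered member. Most of the Pcdhgc4 level, 79.1 ± 16.8 TPM, belonged to a transcript of 2272 bases of which only 151 of 2242 words were found in no other gene. The full-length Pcdhgc4 transcript, with 2903 such words, stood at 14.8 ± 5.57 TPM. The main Pcdhgc3 transcript had 2564 such words and stood at 115 to 129 TPM in the 4 libraries. When only transcripts with at least 1000 such words were kept, an alternative added after seeing the data, Pcdhgc4 was at 20.6 TPM, under Cdh2, Pcdh9 and Pcdhgb7, and Pcdhgc3 at 135 TPM, and the C genes held 51.0 to 59.1% of the gamma sum. The division of shared-exon reads between these transcripts was not tested.

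Among the 18 gamma A and B genes, those nearer the shared exons tended to be higher. Spearman's rho between chromosome order and mean TPM over these 18 genes was 0.72, and 0.65 to 0.75 in the single libraries; it is given as a description, since the genes share exons and libraries. The first gene, Pcdhga1, stood at 2.11, 1.12, 1.31 and 0.415 TPM. Near the other end, Pcdhgb7 (29.3, 27.6, 29.9 and 28.8 TPM) was as high as Pcdhgc5 and barely varied between libraries. Pcdhga11 (20.2, 12.1, 21.2 and 22.3 TPM) and Pcdhgb6 (18.5, 20.6, 25.3 and 11.1 TPM) came next, the first lowest in library 2 and the second in library 4. Several genes broke the order. Pcdhga12 (7.60 ± 2.92 TPM), the last before the C genes, and Pcdhga10 (5.07 ± 0.66 TPM) stood under Pcdhga7 (9.89 ± 0.28 TPM), which lies farther away. These genes were named after their values were seen. Pcdhga9, just before Pcdhgb6 on the chromosome, stood at 2.03 ± 0.76 TPM. Its call as above 1 TPM was lost without any 1 of the 4 libraries, with a log2 difference of 0.41 to 0.66. Those of Pcdhgb2 (3.42 ± 1.58 TPM) and Pcdhga2 (2.32 ± 0.93 TPM) were each lost without any of 3 libraries, while Pcdhga3 and Pcdhgb1 were above 1 TPM in 3 alternatives, edgeR among them. Pcdhgb8, annotated as a polymorphic pseudogene and so not a member, stood at 8.23 ± 1.65 TPM.

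**Figure D3:**
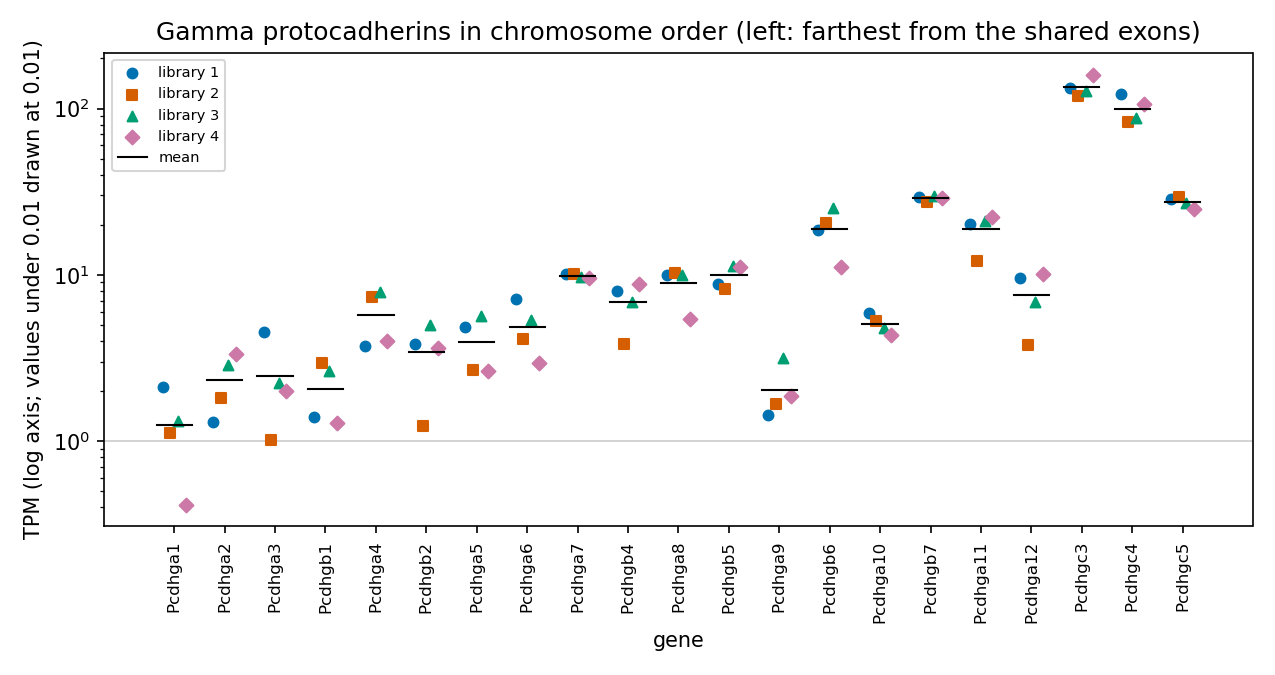
TPM of the 21 gamma protocadherins (log axis) in chromosome order, the shared exons lying to the right, one marker per library and a line at the arithmetic mean. Pcdhga1 lies between 0.415 and 2.11 TPM on the left, and the C genes reach 160 TPM on the right.

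Beta protocadherins, which act as surface recognition proteins without the shared tail, were low but broadly present. All 22 had a count in some library, and their median was 1.52 TPM. Of the 22, 5 were above 1 TPM, 5 below and 12 in neither, while 62.8% of all genes tested were above and 23.2% below. Pcdhb6 led at 2.42, 1.53, 5.29 and 4.70 TPM, with libraries 3 and 4 high. Pcdhb7 (2.87, 1.88, 2.78 and 3.60 TPM), Pcdhb16 (3.30, 0.96, 2.62 and 3.91 TPM) and Pcdhb22 (1.58, 2.68, 2.64 and 2.53 TPM) followed. The calls of Pcdhb6 and Pcdhb16 were each lost in 4 alternatives, among them without library 1, without library 3 and without library 4 (Pcdhb6 log2 difference 0.87 to 1.17 and Pcdhb16 0.65 to 0.79 in those 3). Pcdhb9, the fifth gene above 1 TPM and named after its values were seen, was the most even at 2.26 ± 0.235 TPM. The Pcdhb22 call was lost with only its most abundant transcript (log2 difference 0.50). Of the 5 genes below 1 TPM, Pcdhb19, Pcdhb12, Pcdhb1 and Pcdhb15 lost the call with edgeR. Pcdhb13 was lowest at 0.0315 ± 0.0264 TPM. Spearman's rho between chromosome order and mean TPM was -0.04 over the 22 beta genes (-0.31 to 0.24 in single libraries) and 0.54 over the 14 alpha genes (0.37 to 0.58), given as descriptions. Some genes were highest in 1 library: Pcdhb20 was at 5.06 TPM in library 4 and at 0.75 to 1.32 TPM in the others, and Pcdhb10 at 4.23 TPM in library 3 and at 1.24 to 1.58 TPM in the others. Both passed in neither direction, and both were above 1 TPM with edgeR.

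The alpha protocadherins were the lowest of the clustered genes. None of the 12 with a count was above 1 TPM, 8 were below and 4 in neither. Of all genes tested, 62.8% were above and 23.2% below. Pcdhac2, a C-type gene of the alpha cluster, was highest at 0.56, 0.92, 1.27 and 3.04 TPM. The symbol Pcdha11 belongs to 2 gene entries, one at 0.22, 1.03, 1.41 and 2.37 TPM and the other at 0.223 ± 0.331 TPM, and Pcdha12 stood at 1.91, 0, 1.23 and 0.918 TPM. Estimated levels of some alpha genes differed by library. Pcdha5 had 1.60 TPM in library 2 and at most 0.03 TPM in the rest. Pcdha1 had 0.51 TPM in library 1 and 0 in the rest. Only 35.5 and 35.8% of the words of Pcdha5 and Pcdha1 are found in no other gene. The part of the division of shared-exon reads in these values was not tested. The lowest with a count, Pcdha2, was at 0.00448 ± 0.00897 TPM. Pcdha4 and Pcdha6 had no count in any library. At 3 counts that would allow up to 0.0539 and 0.0538 TPM, if every read could be told apart from other genes. Over all its transcripts, 9.32% of the words of Pcdha4 are found in no other gene, the lowest share among the members. Its coding transcript of 5363 bases has only 116 such words of 5333, and that of Pcdha6 of 5367 bases has 1483 of 5337. Levels above these limits are therefore not excluded. With edgeR the calls as below 1 TPM of Pcdha7, Pcdhac1, Pcdha1 and the lower Pcdha11 entry were lost, and those of Pcdha3 and Pcdha9 were lost there and without each of 3 libraries.

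**Figure D4:**
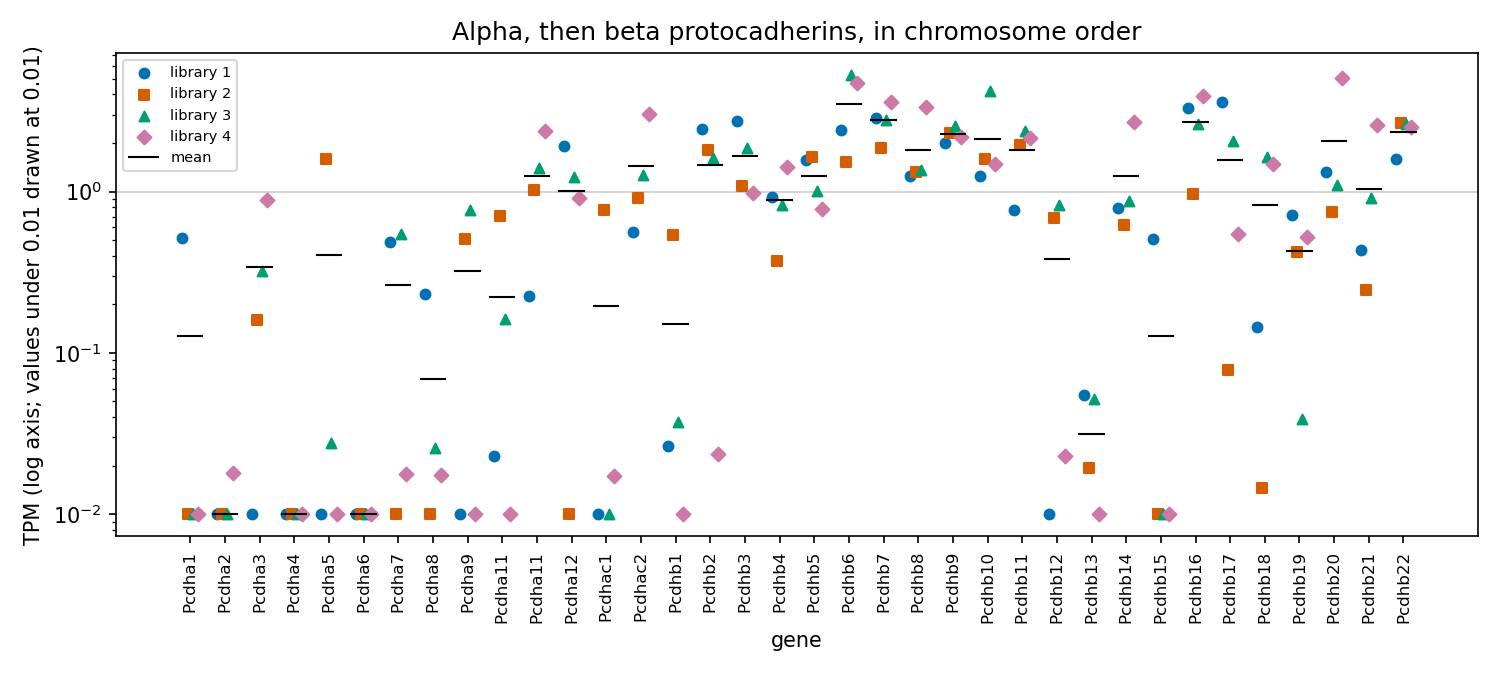
TPM of the 14 alpha and then the 22 beta protocadherins (log axis; values under 0.01 drawn at 0.01), each cluster in chromosome order, one marker per library and a line at the arithmetic mean. Most alpha genes have libraries on the floor of the plot, while most beta genes lie near the line at 1 TPM.

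Genes known to set the choice of clustered promoters were present throughout: 11 of 12 were above 1 TPM and 1 was in neither (limma; 62.8% of all genes tested were above). Ctcf, whose binding loops an enhancer to the chosen promoter, stood at 91.5 ± 6.24 TPM, of which 25.1% came from coding transcripts, the cohesin release factor Wapl at 48.1 ± 5.04 TPM and the cohesin subunit Smc1a at 42.9 ± 3.60 TPM. Dnmt3b, which methylates promoters of the clusters, was the lowest at 4.12, 2.24, 3.52 and 0.84 TPM and passed in neither direction. All 9 listed partners of the intracellular part were also above 1 TPM, led by the WAVE-complex genes Nckap1 (83.5 ± 10.3 TPM) and Cyfip1 (83.3 ± 9.53 TPM) and the kinase Fyn (79.1 ± 11.3 TPM). The kinase Ptk2b, which gamma protocadherins bind and inhibit, was the lowest at 25.4 ± 3.31 TPM.

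Delta protocadherins were above 1 TPM for 8 of 9 genes, against 62.8% of all genes tested; among the 8, the Pcdh7 call was lost with only its most abundant transcript (log2 difference 0.69). Pcdh9 led by a wide margin at 65.2, 56.0, 76.1 and 61.5 TPM (log2 difference 5.03 ± 0.09, SE; limma, adjusted p = 3.85e-08). It held 41.6 to 53.3% of the delta sum. On the log2(TPM + 1) scale Pcdh9 was higher than Pcdh10 by 1.56 ± 0.23 (SD, n = 4), in 4 of 4 libraries. Of the Pcdh9 level 84.1% came from coding transcripts. The other delta 1 genes were close together: Pcdh1 stood at 5.02, 6.06, 5.15 and 12.8 TPM, with library 4 high, Pcdh11x at 2.96, 7.16, 11.5 and 5.99 TPM, with library 3 high, and Pcdh7 at 4.87, 3.56, 6.75 and 8.22 TPM. Only 37.3% of the Pcdh11x level came from coding transcripts, and a retained-intron transcript at 3.81 ± 2.75 TPM was its highest.

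Of the delta 2 genes, Pcdh10 (OL-protocadherin) was highest at 20.6, 16.0, 23.5 and 25.8 TPM, and 72.1% of its level was coding. Pcdh8, which neuronal activity is known to induce, ranged most, at 9.02, 6.45, 20.8 and 14.7 TPM. Pcdh18 (9.44, 4.29, 6.55 and 10.8 TPM) and Pcdh17 (6.44, 4.81, 6.33 and 7.22 TPM) followed. Library 2 was the lowest for all 4. Pcdh19, the X-linked gene mutated in an epilepsy of girls, passed in neither direction at 1.52, 0.81, 0.86 and 0.79 TPM. Pcdh20, outside both delta groups, was also in neither at 3.14, 2.47, 0.57 and 1.86 TPM, and was above 1 TPM without library 3 (log2 difference 0.79, limma, adjusted p = 0.037; 0.014 to 0.423 over its alternatives). The log2 ratio of the delta 1 over the delta 2 sum was 0.81 ± 0.25, above 0 in 4 of 4 libraries, but 0.12 ± 0.08 when counts were not corrected for length. Pcdh9 alone held 64.7 TPM of the mean delta 1 sum of 84.7 TPM. The sum over the 9 delta protocadherins was below that over the 57 clustered ones in 4 of 4 libraries (log2 ratio -1.74 ± 0.19). By the median gene the order was reversed. It stood at 7.08 TPM in delta 1 and 7.78 TPM in delta 2, against 0.243 TPM in alpha, 1.52 TPM in beta and 6.86 TPM in gamma.

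**Figure D5:**
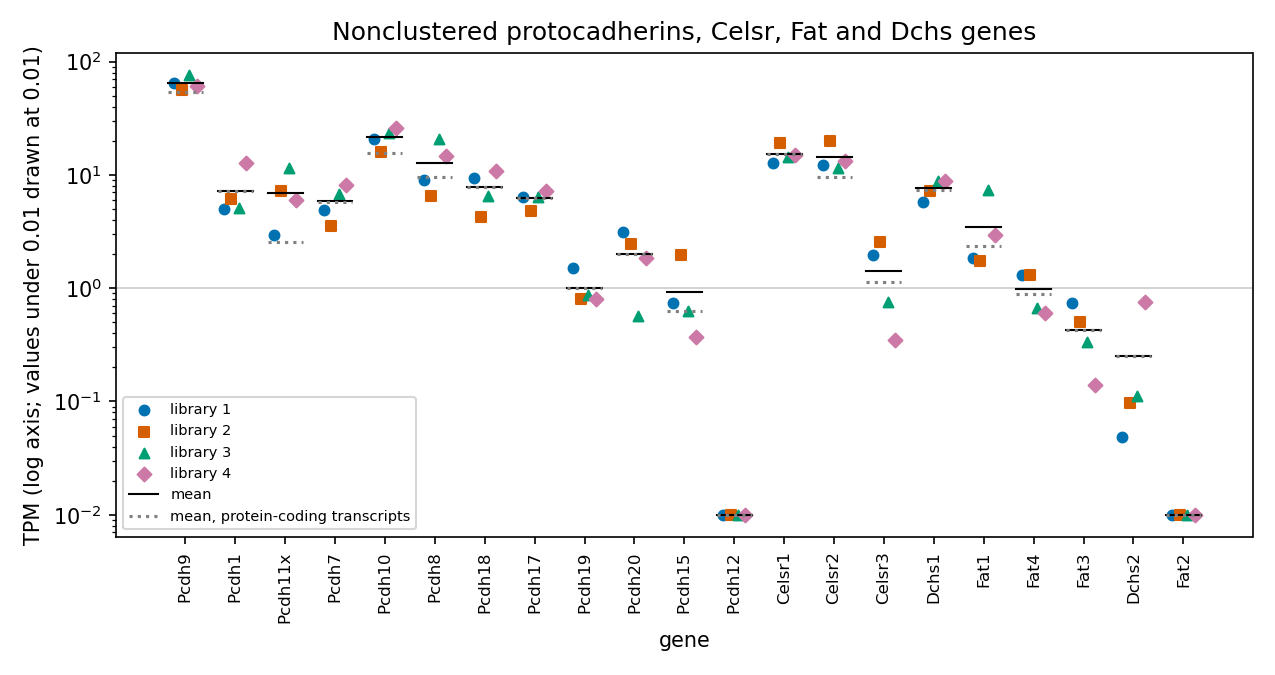
TPM of the delta and other nonclustered protocadherins and of the Celsr, Fat and Dchs genes (log axis; values under 0.01 drawn at 0.01), one marker per library, with a solid line at the arithmetic mean and a dotted line at the mean of protein-coding transcripts. Pcdh9 lies between 56.0 and 76.1 TPM; Pcdh12 and Fat2 had no count.

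The Celsr genes, cadherins that cross the membrane many times and orient cells and their cilia within the plane of a tissue, were led by 2 of the 3. Celsr1 stood at 12.6, 19.1, 14.3 and 14.8 TPM and Celsr2 at 12.1, 20.1, 11.6 and 13.3 TPM. The pair did not differ beyond its spread (log2 ratio 0.10 ± 0.15, Celsr1 higher in 3 of 4 libraries). Both were highest in library 2, which also had the highest summed level of ependymal genes, 1211 TPM against 601 to 997 TPM in the others; the part of ependymal RNA in the Celsr levels was not tested. Coding transcripts made up 66.4% of the Celsr2 level. Celsr3, known from axon guidance, passed in neither direction at 1.96, 2.55, 0.76 and 0.35 TPM.

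Of the Fat and Dchs genes, Dchs1, the ligand of Fat4, was highest at 5.77, 7.13, 8.90 and 8.79 TPM and was above 1 TPM (log2 difference 2.10 ± 0.19, SE; limma, adjusted p = 8.19e-05). Its receptor Fat4 stood at 1.32, 1.30, 0.67 and 0.61 TPM and passed in neither direction. On the log2(TPM + 1) scale Dchs1 was higher than Fat4 by 2.13 ± 0.53 (SD, n = 4), in 4 of 4 libraries. The added 1 makes this difference smaller than that of the TPM values, since Fat4 lies near 1 TPM. Fat1 stood at 1.85, 1.73, 7.40 and 2.96 TPM. The high value of library 3 held 3.29 TPM of a transcript of 739 bases marked for nonsense-mediated decay, and the Fat1 call as above 1 TPM was lost without any 1 library (log2 difference 0.65 without library 3 and 1.01 to 1.19 without another). Fat3 (0.427 ± 0.253 TPM) and Dchs2 (0.255 ± 0.339 TPM) were below 1 TPM, and Fat2 had no count (up to 0.0195 TPM). The Fat3 call was lost, at a log2 difference of -0.37, with TPM rescaled to nuclear protein-coding genes alone, and the Dchs2 call with edgeR (-1.92). All 10 listed genes of planar polarity were above 1 TPM, as were 62.8% of all genes tested. Fjx1, a Golgi kinase that modifies the Fat and Dchs proteins, led at 201 ± 17.8 TPM, Dvl1 stood at 75.4 ± 13.3 TPM and Dvl3 at 38.7 ± 3.49 TPM, and the core gene Prickle1 was lowest at 5.44 ± 2.48 TPM.

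Of 9 genes of catenins, which link classical cadherins to actin, and related proteins, 8 were above 1 TPM (62.8% of all genes tested) and Ctnna3 (1.13 ± 0.64 TPM) was in neither. Ctnnb1 (beta-catenin) stood at 295, 255, 303 and 243 TPM, above Cdh2 in every library, Ctnna1 at 82.9 ± 7.49 TPM and the neural alpha-catenin Ctnna2 at 54.0 ± 12.8 TPM. All 10 listed proteases that shed or cut cadherins were likewise above 1 TPM, led by the gamma-secretase subunit Psenen (114 ± 9.46 TPM) and by Mmp14 (113 ± 19.8 TPM). Mmp24, known to cleave N-cadherin in adult neural stem cells, was the lowest at 6.86 ± 1.88 TPM. Of 5 repressors of Cdh1 transcription, Zeb1 (87.8 ± 26.5 TPM, 33.9% from coding transcripts) and Zeb2 (82.2 ± 14.1 TPM) were above 1 TPM, Snai2 (0.401 ± 0.383 TPM) and Snai1 (0.0665 ± 0.104 TPM) were below, and Twist1 had no count.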

How the data were processed

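RNA of the sorted cells was amplified with SMART-Seq v4 and sequenced as paired-end reads, per the labels' protocols. The deposited tables give estimated counts and TPM per transcript, per the file headers; kallisto, sleuth and mm10 are named in the submitters' processing notes, with versions and index release not given in the sources used here. Of 99567 transcripts, 98294 matched GENCODE M21 (mm10); the other 1273 held 2.59 to 4.56% of TPM and entered no gene. TPM was summed per gene. Levels were tested on log2(TPM + 1) with limma 3.58.1 (R 4.3.3; variance trend, two-sided, Benjamini-Hochberg over 19914 genes), a script tested on simulated data; edgeR 4.0.16 on rounded counts with length offsets was an alternative. Subfamily sums were compared by log2 ratios without a test. Words of 31 bases came from GENCODE transcripts and promoters from RefSeq (GRCm38.p6). Promoters on chromosome 18, which holds 60 of the 101 members, were left out, and 29 members matched.

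Alternatives were a pseudocount of 0.1, a mean of at least 5 counts, a level of 5 TPM, rescaling over nuclear protein-coding genes, coding or most abundant transcripts only, counts scaled to library size without length (CPM), and leaving out each library. Limiting members to transcripts with 1000 gene-unique words, and leaving Pcdhgc4 out of the gamma sum, were chosen after seeing the data. Named genes are, per subfamily, the 4 highest and the lowest, all members of subfamilies of 5 or fewer, members without a count, members whose call changed, and per partner list the 3 highest and the lowest; 1 of these is not reported here. Members and lists were chosen with earlier results of these data known. Limits from 3 counts cover counting error only.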

Additional observations from a re-analysis of the deposited data

Results flagged for a closer look

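In 15 of 93 values checked, 1 library lay apart from the other 3 beyond the critical value of Dixon's test. Chance flags about 1 in 20 groups of normally distributed values, a rate that does not hold for genes at or near 0 in the other 3 libraries, such as Pcdha1 and Pcdha2. Among alpha genes, Pcdha5 (1.60 TPM) and Pcdhac1 (0.769 TPM) were high in library 2, Pcdha1 in library 1 (0.512 TPM) and Pcdha2 in library 4 (0.0179 TPM). Among beta genes, Pcdhb20 (5.06 TPM) and Pcdhb8 (3.33 TPM) were high in library 4, Pcdhb10 in library 3 (4.23 TPM), Pcdhb1 in library 2 (0.538 TPM) and Pcdhb15 in library 1 (0.510 TPM), while Pcdhb22 was low in library 1 (1.58 TPM). Outside the clusters, Pcdh1 (12.8 TPM) and Dchs2 (0.762 TPM) were high in library 4, Pcdh19 was high in library 1 (1.52 TPM) and Cdh22 was low in library 3 (3.73 TPM). The summed level of the Celsr genes was high in library 2 at 41.8 TPM, against 26.7 to 28.4 TPM in the others.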

How the results depend on the processing

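The 45 members above 1 TPM became 20 at a level of 5 TPM, and the 20 below became 56 there and 8 with edgeR, which called 54 above. Leaving out 1 library gave 39 to 42 above and 17 to 19 below. Of single calls, 36 of 45 above, 7 of 20 below and 16 of 31 in neither were kept in every alternative at 1 TPM. Log2 ratios of sums kept their sign throughout. Type I over type II was 0.36 with the most abundant transcripts and 0.69 to 0.80 without 1 library. Gamma over beta was 3.38 with transcripts of 1000 gene-unique words, 3.26 without Pcdhgc4 and 3.56 to 3.76 without 1 library, and gamma over alpha 5.99 to 6.30 there. Beta over alpha was 2.08 without length correction and 2.37 to 2.70 without 1 library. Delta over clustered was -1.95 with coding transcripts, -2.38 with the most abundant transcripts, -1.37 without Pcdhgc4, and -1.82 to -1.68 without 1 library. Delta 1 over delta 2 was 0.12 without length correction and 0.70 to 0.89 without 1 library. Cdh7 turned to -0.69 from 1 TPM with its most abundant transcript, and Cdh16 to -1 with transcripts of 1000 gene-unique words, by construction, since its only detected transcript is shorter. Rescaling moved the median of all genes by 0.38 (log2). No paired analysis was possible because the libraries form 1 group. Single-library values of genes near 1 TPM are limited by depth.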
